A study of Mus musculus with 6 samples.

Results

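Transcripts of 10 genes of extracellular matrix turnover were measured in infarcted mouse hearts with and without Zeb2 in cardiomyocytes. They are 6 matrix metalloproteinases (MMPs), Mmp2, Mmp3, Mmp9, Mmp12, Mmp14 and Mmp19, and the 4 tissue inhibitors of metalloproteinases, Timp1, Timp2, Timp3 and Timp4. Members were chosen by symbol, each matched to 1 of the 38293 genes in the count table, and all 10 passed the filter on low counts that left 14746 genes for testing. RNA-seq was performed on heart tissue of 3 Zeb2 fl/fl mice, which the labels call WT, and 3 Zeb2 cKO mice. Every mouse was an adult C57BL/6J (backcrossed) male that underwent a permanent ligation of the left anterior descending coronary artery, and tissue was taken 14 days after myocardial infarction (MI). Zeb2 cKO mice carry both floxed Zeb2 alleles together with Cre recombinase under the Myh6 (αMHC) promoter, which is active in cardiomyocytes, so that other cells of the tissue keep Zeb2. The labels place the tissue in the border region of the infarct and the methods of the study in the remote zone, and each library is 1 mouse.

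MMPs are zinc-dependent endopeptidases that cleave collagens, elastin, proteoglycans and other matrix proteins as well as growth factors and their binding proteins. Most are secreted as inactive precursors and are opened by other proteases, and a smaller group is anchored in the cell membrane. TIMPs bind the active site of MMPs in a complex of 1 inhibitor with 1 protease. After MI, MMPs take part in the removal of necrotic tissue, the breakdown of the old collagen network and the remodelling of the scar, in which fibroblasts and macrophages are known sources of both proteases and inhibitors. RNA counts report transcript levels, not secreted, activated or inhibited protein.

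No member passed the test of Zeb2 cKO against Zeb2 fl/fl. With edgeR's quasi-likelihood method, and p-values adjusted after Benjamini and Hochberg across the whole table, 0 of 10 members had an adjusted p under 0.05 (0% of tested genes in either direction). The groups overlapped in all 10, where 6.36% of tested genes had groups that do not overlap (2.97% lower and 3.39% higher in Zeb2 cKO). At an unadjusted p under 0.05, edgeR gave 1 member, Mmp12, which was lower in Zeb2 cKO, where 1.90% of tested genes had such a p (0.861% lower and 1.04% higher). DESeq2 also gave 0 members after adjustment, and 2 at an unadjusted p under 0.05, Mmp12 and Timp1, beside 2.45% of the genes for which it gave a p. In 8 members the log2 fold change lay under -0.2 (22.6% of tested genes) and in 1, Mmp9, over 0.2 (15.9%). The median log2 fold change of the members was -0.75, beside -0.0069 over all tested genes.

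Most of this rested on 1 library. Zeb2 fl/fl replicate 2 was the highest of the 6 libraries in 8 of 10 members (35.2% of tested genes), all but Mmp9 and Timp4, and in each of these 8 it held at least 2 times the level of the next library (5.95% of tested genes). Timp4 was lowest in it (34.6% of tested genes). Without it, 2 members lay under -0.2 (11.7% of the genes then tested), Mmp12 and Timp4, and 2 over 0.2 (14.2%), Mmp3 and Mmp9. The median over the members was then -0.022, beside 0.0026 over all genes, and edgeR again gave 0 adjusted calls and 1 unadjusted p under 0.05, that of Timp4, lower in Zeb2 cKO (2.63% of the genes then tested in either direction and 1.08% lower). Each member is therefore described with and without this library.

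Markers of several cell types moved with the same library. All 10 of 10 fibroblast markers were highest in Zeb2 fl/fl replicate 2, with a summed level of 9693 CPM (counts scaled to a common library size, here after TMM normalization) against 2000 to 2410 CPM in the other 5 libraries. Of 10 activated fibroblast markers, 9 were highest there, at a summed 2349 CPM against 307.3 to 799.5 CPM, and all 12 of 12 macrophage markers were, at a summed 924 CPM against 227 to 317 CPM. Of 10 cardiomyocyte markers, 9 were lowest there, and their sum of 35860 CPM stood below the 56380 to 68630 CPM of the others. Of 8 smooth muscle and pericyte markers, 7 were lowest there. Endothelial markers were mixed, with 3 of 8 highest and 5 lowest there. Of 6 epicardial markers, 4 were highest and 1 lowest there, and 5 lay over 0.2 without that library (14.2% of the genes then tested). The 8 neutrophil markers summed to 5.01 CPM in Zeb2 fl/fl replicate 2 and to 1.52 to 3.33 CPM in the others. Of these, Elane had 0 counts and Mpo and Ly6g 0 to 1 counts per library. S100a8 had 4 to 24, S100a9 7 to 43 and Csf3r 40 to 162 counts, and these 3 passed the filter with log2 fold changes under -0.2. Csf3r was highest in Zeb2 fl/fl replicate 2, at 3.69 CPM, most of the sum there, and lay at 0.0078 without that library. S100a8 and S100a9 were highest in Zeb2 fl/fl replicate 3. They stayed at -0.97 and -0.89 without Zeb2 fl/fl replicate 2 and so did not move with it. The part of cell composition in the member values was not tested, and in bulk tissue fewer cells of a type and less RNA per cell cannot be told apart. Total counts were between 37288174 and 51136331 per library, of which 14301225 to 19024394 lay outside mitochondrially encoded genes. Zeb2 itself, counted from all cells, had 61.3, 116.0 and 71.9 CPM in Zeb2 fl/fl and 59.6, 72.6 and 66.5 CPM in Zeb2 cKO hearts. Its log2 fold change was -0.33, and -0.0058 (standard error 0.12) without Zeb2 fl/fl replicate 2, and 5 of the 6 values lay within 59.6 to 72.6 CPM.

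The genes lie on 8 chromosomes of mouse build GRCm38, and only Mmp3 and Mmp12 lie close to each other. Both belong to a cluster of 10 MMP genes on chromosome 9, between 7272514 and 7699585, which spans 427 kb. Mmp12 (ENSMUSG00000049723) lies at chr9:7344381-7369499 on the plus strand and Mmp3 (ENSMUSG00000043613) at chr9:7445822-7455975 on the plus strand. Of the cluster, 3 genes passed the filter, these 2 and the collagenase Mmp13. Mmp1a, Mmp7, Mmp10 and Mmp20 had 0 counts in every library, which allows up to 3 counts in each, Mmp1b reached 1 count and Mmp8, the neutrophil collagenase, 9 counts. Mmp27 had 32 counts in Zeb2 fl/fl replicate 2 and 0 to 6 in the other libraries.

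Timp1, Timp3 and Timp4 sit inside synapsin genes on the opposite strand, an arrangement known from other vertebrates. Timp1 (ENSMUSG00000001131, chrX:20870166-20874735, plus strand) lies in Syn1, Timp3 (ENSMUSG00000020044, chr10:86300372-86349506, plus strand) in Syn3 and Timp4 (ENSMUSG00000030317, chr6:115241892-115252205, minus strand) in Syn2. Exons of Timp3 and Syn3 share 1733 bases, those of Timp4 and Syn2 share 90 bases, and those of Timp1 and Syn1 share 0. The hosts had 0 to 8 counts (Syn1), 14 to 24 counts (Syn3) and 66 to 113 counts (Syn2) per library, which for Syn2 is of the order of the 74 to 211 counts of Timp4. The libraries were stranded, but the strand option used in counting is not given in the sources used here. The remaining members are Mmp2 (ENSMUSG00000031740, chr8:92827291-92853420, plus strand), Mmp9 (ENSMUSG00000017737, chr2:164940780-164955850, plus), Mmp14 (ENSMUSG00000000957, chr14:54431612-54445364, plus), Mmp19 (ENSMUSG00000025355, chr10:128790910-128800824, plus) and Timp2 (ENSMUSG00000017466, chr11:118301069-118355740, minus).

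Promoter sequence was at hand for 7 of the 10 members, in RefSeq windows of 300 bases on GRCm38.p6 that run from 250 bases before a start site to 50 after it. Mmp2, Mmp9 and Mmp19 had none. 3 motifs were searched on both strands: the AP-1 site TGANTCA, which reads the same on either strand, the E-box CACCTG, a type of site that ZEB proteins bind and that reads CAGGTG on the other strand, and the TATA box TATAAA. They do not overlap one another in these windows. The AP-1 letters were in 2 of the 7 members and in 7.81% of all 32851 windows, the E-box letters in 2 members and 20.2% of windows, and the TATA letters in 2 members and 13.6% of windows. The 250 bases before the start site are shown, 5′ to 3′ on the strand of the gene, for the 4 members with a match and for Timp4, the member that was lowest where most others were highest. Capitals mark the matches. The coordinates are chr9:7445572-7445821 (plus) for Mmp3, chr9:7347124-7347373 (plus) for the second of 2 Mmp12 windows, chr11:118355412-118355661 (minus) for Timp2, chr10:86300162-86300411 (plus) for Timp3 and chr6:115252206-115252455 (minus) for Timp4.
Mmp3: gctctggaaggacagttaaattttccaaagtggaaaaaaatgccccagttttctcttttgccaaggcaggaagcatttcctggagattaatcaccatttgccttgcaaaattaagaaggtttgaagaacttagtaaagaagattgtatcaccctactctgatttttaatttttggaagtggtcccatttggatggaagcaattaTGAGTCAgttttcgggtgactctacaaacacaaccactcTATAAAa
Mmp12: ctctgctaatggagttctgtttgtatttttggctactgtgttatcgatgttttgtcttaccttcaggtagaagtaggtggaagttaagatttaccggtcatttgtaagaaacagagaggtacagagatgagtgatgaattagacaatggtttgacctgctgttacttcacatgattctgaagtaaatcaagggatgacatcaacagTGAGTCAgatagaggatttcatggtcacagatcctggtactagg
Timp2: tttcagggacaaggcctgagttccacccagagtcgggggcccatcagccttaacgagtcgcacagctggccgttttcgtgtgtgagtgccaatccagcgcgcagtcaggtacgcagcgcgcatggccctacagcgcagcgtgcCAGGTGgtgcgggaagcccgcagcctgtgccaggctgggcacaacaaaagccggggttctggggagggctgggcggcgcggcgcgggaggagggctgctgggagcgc
Timp3: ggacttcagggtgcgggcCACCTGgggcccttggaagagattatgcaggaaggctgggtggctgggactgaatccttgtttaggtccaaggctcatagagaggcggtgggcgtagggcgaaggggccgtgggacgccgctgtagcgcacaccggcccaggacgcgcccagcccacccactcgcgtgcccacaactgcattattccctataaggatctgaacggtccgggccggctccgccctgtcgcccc
Timp4: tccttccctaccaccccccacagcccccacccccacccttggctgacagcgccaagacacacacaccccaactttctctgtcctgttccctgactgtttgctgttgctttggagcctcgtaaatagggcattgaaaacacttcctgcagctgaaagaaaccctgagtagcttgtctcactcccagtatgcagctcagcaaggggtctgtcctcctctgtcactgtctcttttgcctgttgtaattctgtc
The AP-1 letters TGAGTCA begin 46 bases before the start site in Mmp3 and 44 bases before it in Mmp12, both from the cluster on chromosome 9. TATAAA begins 7 bases before the start in Mmp3 and, outside the bases shown, 5 bases after it in Mmp12. The E-box letters lie 107 bases before the start in Timp2 and 232 before it in Timp3. All these distances are to the RefSeq start site, which can differ from the start of the gene span given above. The Timp2 stretch, which ends at 118355661, lies inside its gene span, which begins at 118355740 on the minus strand. The second Mmp12 window, from 7347124, also lies inside its gene span, which begins at 7344381. These 2 stretches are therefore not upstream of the gene as annotated. The windows of Mmp14, Timp1 and Timp4 and the first window of Mmp12 held none of the 3 motifs. A match is a run of letters and not a measured binding site, and binding of ZEB2 was not measured here.

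Levels between genes were compared as CPM per kb of exon (RPKM). Mmp2, the gelatinase that also cleaves collagens, was the most abundant member, with a median of 22.7 RPKM over the 6 libraries. It was followed by Timp2 at 14.8, Timp3 at 11.5, Timp1 at 6.59 and the membrane protease Mmp14 at 2.56 RPKM, and each of these 5 exceeded the next in all 6 libraries. Mmp3, at a median of 1.01 RPKM, Mmp19 at 0.67, Timp4 at 0.61 and Mmp12 at 0.50 RPKM were close together. Among these, Mmp3 exceeded Mmp19 in 4 of 6 libraries, Mmp19 exceeded Timp4 in 2 and Timp4 exceeded Mmp12 in 4, so that their order was not settled. Mmp9 was the lowest at 0.11 RPKM, under Mmp12 in 6 of 6 libraries.

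**Figure D1:**
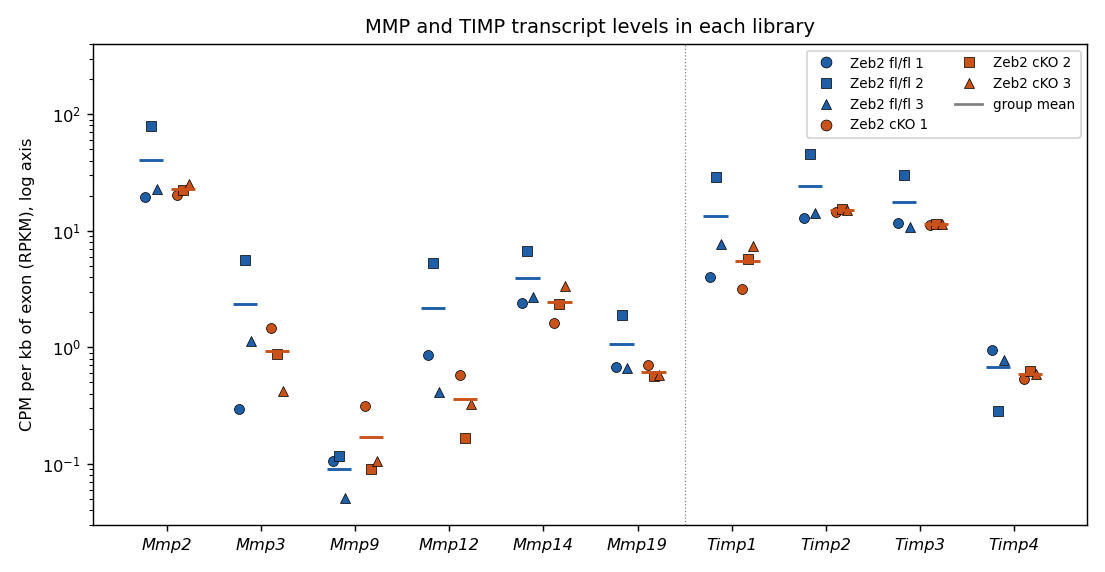
CPM per kb of exon (RPKM, log axis) of the 6 proteases and 4 inhibitors in each library, blue for Zeb2 fl/fl and orange for Zeb2 cKO, with symbols for replicates and bars for group means. Zeb2 fl/fl replicate 2 (blue square) is the highest point in 8 genes and the lowest in Timp4, whereas the orange points of Mmp2, Timp2 and Timp3 nearly coincide with the other blue points.

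Mmp2 (gelatinase A) and Mmp9 (gelatinase B) cleave denatured collagen and basement membrane collagen. In the order of the replicates, the Zeb2 fl/fl hearts had 66.0, 268.8 and 77.7 CPM of Mmp2 (137.5 ± 113.9, mean ± SD, n = 3), and the Zeb2 cKO hearts had 68.6, 75.4 and 85.2 CPM (76.4 ± 8.34, SD, n = 3). All values but that of Zeb2 fl/fl replicate 2 lay within 66.0 to 85.2 CPM, so that the groups overlapped. Its log2 fold change of -0.85 (SE, standard error, 0.53) had an adjusted p of 0.957 in edgeR. It turned to 0.093 (SE 0.13) without Zeb2 fl/fl replicate 2, the mean of the other 2 Zeb2 fl/fl libraries being 71.8 CPM.

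Mmp9 is known in the infarcted heart mainly from neutrophils and macrophages. It was the only member with a log2 fold change above 0, and it had few counts. The Zeb2 fl/fl libraries had 14, 18 and 7 counts (0.372, 0.410 and 0.182 CPM) and the Zeb2 cKO libraries 56, 14 and 20 counts (1.12, 0.323 and 0.372 CPM). Zeb2 cKO replicate 1 alone stood above the rest, with an exact 95% Poisson interval of 0.845 to 1.45 CPM against 0.243 to 0.648 CPM for Zeb2 fl/fl replicate 2, the next highest library. These intervals cover counting error only. Its log2 fold change of 0.90 (SE 0.58) had an adjusted p of 0.957 in edgeR, and it was 0.11 (SE 0.44) without Zeb2 cKO replicate 1. Leaving out Zeb2 fl/fl replicate 2 instead gave 1.13 (SE 0.67).

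Mmp14 (MT1-MMP) is a membrane-anchored collagenase that, with TIMP2 as a bridge, activates the MMP2 precursor at the cell surface. Its levels were 14.4, 40.1 and 16.1 CPM in Zeb2 fl/fl (23.5 ± 14.4, SD, n = 3), against 9.69, 14.2 and 19.9 CPM in Zeb2 cKO (14.6 ± 5.12, SD, n = 3). Besides the high value of Zeb2 fl/fl replicate 2, Zeb2 cKO replicate 1 was the lowest, and the groups overlapped. A fold change of -0.69 on the log2 scale (SE 0.45, adjusted p = 0.957 in edgeR) became -0.060 (SE 0.27) without Zeb2 fl/fl replicate 2.

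Mmp3 (stromelysin 1) cleaves proteoglycans, fibronectin and laminin and activates other MMP precursors. It varied widely within both groups. Zeb2 fl/fl hearts had 0.531, 10.2 and 2.03 CPM (20, 446 and 78 counts), and Zeb2 cKO hearts had 2.66, 1.59 and 0.763 CPM (133, 69 and 41 counts). Both the lowest and the highest value were Zeb2 fl/fl libraries, with the Zeb2 cKO libraries between them. The fold change on the log2 scale was -1.35 (SE 0.97, adjusted p = 0.957 in edgeR), and 0.38 (SE 0.63) without Zeb2 fl/fl replicate 2. Stretches that make up 22.9% of its longest transcript have a near-identical copy in the loci Gm15242 or Gm15244, and how reads mapping to several places were counted is not given in the sources used here.

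Mmp12 (macrophage elastase) degrades elastin and is known as a macrophage product. The Zeb2 fl/fl hearts had 6.21, 37.9 and 3.00 CPM (15.7 ± 19.3, SD, n = 3) and the Zeb2 cKO hearts 4.20, 1.20 and 2.36 CPM (2.59 ± 1.51, SD, n = 3). Zeb2 fl/fl replicate 2 held 6.11 times the next highest library, and Zeb2 cKO replicate 1 lay above Zeb2 fl/fl replicate 3. This was the largest fold change of a member, -2.60 on the log2 scale (SE 0.97, unadjusted p = 0.0324 and adjusted p = 0.957 in edgeR). With Zeb2 fl/fl replicate 2 left out it was -0.82 (SE 0.49, unadjusted p = 0.134 in edgeR). Leaving out Zeb2 cKO replicate 2 (unadjusted p = 0.0951 in edgeR) or replicate 3 (unadjusted p = 0.093 in edgeR) also ended the unadjusted call. Mmp12 and Mmp9 were the 2 members whose fold change kept its direction at over 0.2 in size with and without that library.

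Mmp19 is a secreted protease of basement membrane and other matrix proteins. It reached 2.39, 6.70 and 2.34 CPM in Zeb2 fl/fl, against 2.52, 2.01 and 2.05 CPM in Zeb2 cKO. Outside Zeb2 fl/fl replicate 2 the 5 values lay within 2.01 to 2.52 CPM. On the log2 scale the groups differed by -0.80 (SE 0.43, adjusted p = 0.957 in edgeR), and by -0.11 (SE 0.18) without that library. Exons of Mmp19 share 789 bases with Tmem198b on the opposite strand, which had 129 to 243 counts per library where Mmp19 had 87 to 294.

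**Figure D2:**
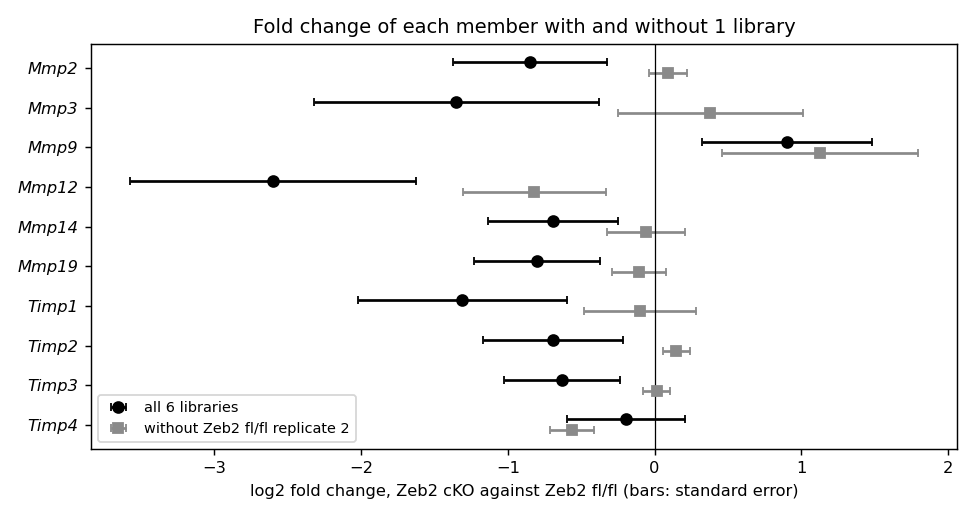
Log2 fold change of Zeb2 cKO against Zeb2 fl/fl for each member from edgeR, with bars of 1 standard error, from all 6 libraries (black circles) and without Zeb2 fl/fl replicate 2 (grey squares). Mmp2, Mmp3, Timp2 and Timp3 cross 0 when that library is left out, Mmp12 moves from -2.60 to -0.82, and Timp4 is the one member that moves further below 0.

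Timp1 is the inducible inhibitor, known to rise with inflammation and fibrosis. Its libraries differed most among the 4 TIMPs on the log2 CPM scale (SD 1.11 over the 6 libraries, against 0.582 to 0.684 for the others), with 3.56, 25.5 and 6.85 CPM in Zeb2 fl/fl (12.0 ± 11.9, SD, n = 3) and 2.82, 5.12 and 6.59 CPM in Zeb2 cKO (4.84 ± 1.90, SD, n = 3). The Zeb2 cKO values lay on both sides of Zeb2 fl/fl replicate 1 and under the other 2 Zeb2 fl/fl libraries. The difference was -1.31 on the log2 scale (SE 0.71, adjusted p = 0.957 in edgeR), and -0.10 (SE 0.38) when Zeb2 fl/fl replicate 2 was left out.

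Timp2 and Timp3 are the broadly expressed inhibitors, and TIMP3 stays bound to the extracellular matrix and also inhibits ADAM proteases. Timp2 had 49.8, 176.7 and 55.5 CPM in Zeb2 fl/fl, against 57.0, 59.5 and 58.3 CPM in Zeb2 cKO (58.3 ± 1.23, SD, n = 3). Timp3 had 94.8, 246.9 and 88.5 CPM in Zeb2 fl/fl, against 90.8, 92.8 and 93.9 CPM in Zeb2 cKO (92.5 ± 1.57, SD, n = 3). For both, the Zeb2 cKO mice lay within a few CPM of each other. They stood between Zeb2 fl/fl replicates 1 and 3 for Timp3 and just above both of them for Timp2, and under Zeb2 fl/fl replicate 2 for either gene. The log2 fold changes of -0.69 (SE 0.48) for Timp2 and -0.63 (SE 0.40) for Timp3 both had an adjusted p of 0.957 in edgeR. They were 0.15 (SE 0.095) and 0.015 (SE 0.093) without Zeb2 fl/fl replicate 2, the smallest standard errors among the members.

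Timp4 is the TIMP best known from the heart, where cardiomyocytes express it. It had the opposite pattern, at 5.60, 1.69 and 4.61 CPM in Zeb2 fl/fl (3.97 ± 2.04, SD, n = 3) and 3.18, 3.71 and 3.48 CPM in Zeb2 cKO (3.46 ± 0.267, SD, n = 3). The lowest value was Zeb2 fl/fl replicate 2, the 2 highest were the other Zeb2 fl/fl libraries, and all Zeb2 cKO libraries lay between them. The groups differed by -0.20 on the log2 scale (SE 0.40, adjusted p = 0.960 in edgeR). Leaving out Zeb2 fl/fl replicate 2 gave -0.56 (SE 0.15, unadjusted p = 0.00669 and adjusted p = 0.9997 in edgeR), and the groups then did not overlap. Of all genes tested in that fit, 15.5% had groups that do not overlap, and in 7.48% Zeb2 cKO was the lower group. Leaving out Zeb2 fl/fl replicate 1 gave 0.14, so that the direction rested on which of the Zeb2 fl/fl libraries were included.

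Proteases were then set against inhibitors as the ratio of summed RPKM, which is a description of transcript levels and was given no test. The 6 proteases summed to 23.9, 99.4 and 28.0 RPKM in Zeb2 fl/fl and to 25.1, 26.5 and 30.1 RPKM in Zeb2 cKO. The 4 TIMPs summed to 29.4, 104.7 and 33.6 RPKM in Zeb2 fl/fl and to 29.5, 33.0 and 34.5 RPKM in Zeb2 cKO. Inhibitor transcripts thus exceeded protease transcripts in 6 of 6 libraries. The protease to inhibitor ratio was 0.815, 0.949 and 0.833 in Zeb2 fl/fl (0.866 ± 0.0729, SD, n = 3) and 0.850, 0.801 and 0.871 in Zeb2 cKO (0.841 ± 0.0361, SD, n = 3). Whereas the sums differed severalfold between Zeb2 fl/fl replicate 2 and the other libraries, the ratio ranged only from 0.801 to 0.949, and the groups overlapped. On the log2 scale the groups differed by -0.040, less than the pooled SD of 0.095, and by 0.028 without Zeb2 fl/fl replicate 2. The difference was larger, -0.137, both from CPM without division by length and from the mean of log2 values in place of the sum, so its size depended on how the genes were weighted.

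**Figure D3:**
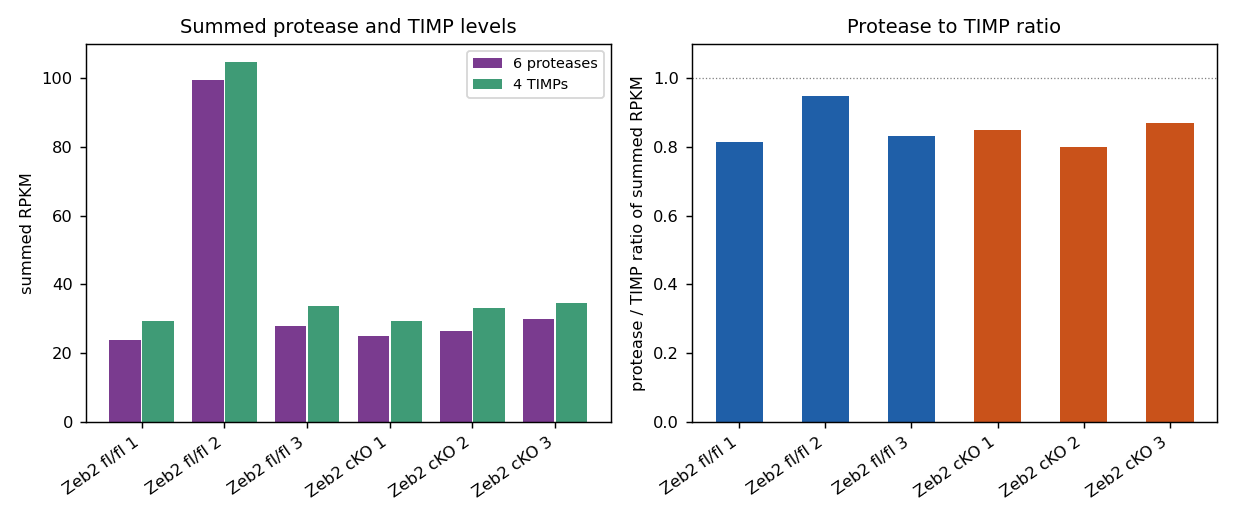
Left, summed RPKM of the 6 proteases and the 4 TIMPs in each library. Right, the ratio of both sums, blue for Zeb2 fl/fl and orange for Zeb2 cKO, with a dotted line where they are equal. Both sums are highest in Zeb2 fl/fl replicate 2, at 99.4 and 104.7 RPKM, and the ratio stays under the line in every library.

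The sums were dominated by few genes. Mmp2 made up 80.3 to 84.6% of the protease sum in each library, followed by Mmp14 at 6.49 to 11.1%, and Mmp9 stayed at 0.117 to 1.26%. Of the TIMP sum, Timp2 made up 42.4 to 49.6%, Timp3 29.0 to 39.6%, Timp1 10.8 to 27.5% and Timp4 0.273 to 3.24%. The share of Timp1 was largest and that of Timp4 smallest in Zeb2 fl/fl replicate 2. The ratio of Mmp2 to Timp2, the pair that meets on MMP14 at the cell surface, was 1.53, 1.76 and 1.62 in Zeb2 fl/fl and 1.39, 1.47 and 1.69 in Zeb2 cKO, and the groups overlapped there too. The ratio of Mmp9 to Timp1, its usual inhibitor, was highest in Zeb2 cKO replicate 1 at 0.0997 and lay between 0.00403 and 0.0262 in the other 5 libraries.

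Among the 17 other MMP genes of the mouse that were listed, 7 passed the filter, and edgeR gave 0 of them an unadjusted p under 0.05. Log2 fold changes were -1.05 for Mmp16 and -0.69 for Mmp23, both membrane-anchored, -0.57 for Mmp13, -0.20 for Mmp28 and -0.14 for Mmp11, a stromelysin of fibroblasts. They were 0.04 for Mmp17 and 0.20 for Mmp15, a further membrane-anchored MMP. Without Zeb2 fl/fl replicate 2, Mmp16 was at 0.18, Mmp23 at 0.28, Mmp28 at 0.074, Mmp11 at 0.12 and Mmp15 at -0.21, all turned in direction. Mmp13 stayed at -0.59 and Mmp17 at 0.066. Under -0.2 lay 2 of the 7 in place of 4, beside 11.7% in place of 22.6% of tested genes. Mmp15 was unlike most members, with 11.8 CPM in Zeb2 fl/fl replicate 2 against 36.4 to 55.2 CPM in the other 5 libraries. Mmp13 was low throughout, with 15 to 25 counts per library. It had 0.398, 0.501 and 0.651 CPM in Zeb2 fl/fl and 0.340, 0.369 and 0.335 CPM in Zeb2 cKO. It was the only one of the 7 whose groups did not overlap, as in 6.36% of tested genes (2.97% with Zeb2 cKO lower). With Mmp15 and the other genes added, the protease sum exceeded the TIMP sum in each library, and the log2 ratio differed by 0.044 between the groups. The statement that inhibitors exceeded proteases therefore holds for the 6 named proteases and not for all MMP genes.

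Of 16 listed activators and cofactors of MMPs, 13 passed the filter. Of these, 7 lay under -0.2 (22.6% of tested genes) and 1 over 0.2 (15.9%), with a median of -0.21. In edgeR 0 of 13 had an unadjusted p under 0.05. The lowest were the membrane protease Adam12 at -0.77 (standard error 0.33) and the proprotein convertase Pcsk5 at -0.51. Lcn2, which binds MMP9, at 0.27 and Bsg, the MMP inducer basigin, at 0.19 were the highest. Of 12 further inhibitors and clearance factors 9 passed, 7 under -0.2 and 2 over 0.2, with a median of -0.68 and 0 of 9 at an unadjusted p under 0.05 in edgeR. Thbs1 at -1.75 and Thbs2 at -1.43, thrombospondins that bind MMPs for uptake, were the lowest, and A2m at 0.79 and Wfdc1 at 0.44 the highest. Without Zeb2 fl/fl replicate 2, Thbs1 was at -0.21 and Thbs2 at 0.25, Adam12 at -0.36 and Pcsk5 at -0.15. Of the highest genes, Lcn2 was then at 0.58, Bsg at 0.019, A2m at 0.34 and Wfdc1 at 0.39. Under -0.2 lay 1 of 13 activators and 2 of 10 inhibitors then tested (11.7% of genes), and over 0.2 lay 2 and 3 (14.2%). In edgeR 1 of the 10 inhibitors, lower in Zeb2 cKO, and 0 of the 13 activators had an unadjusted p under 0.05 (2.63% of genes). The medians of these lists were then -0.042 and 0.069. Of 12 matrix substrates, 10 lay under -0.2 (22.6% of tested genes) with a median of -1.24. Without that library 2 of 12 lay under -0.2 (11.7% of the genes then tested), and the median was -0.060.

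**Figure D4:**
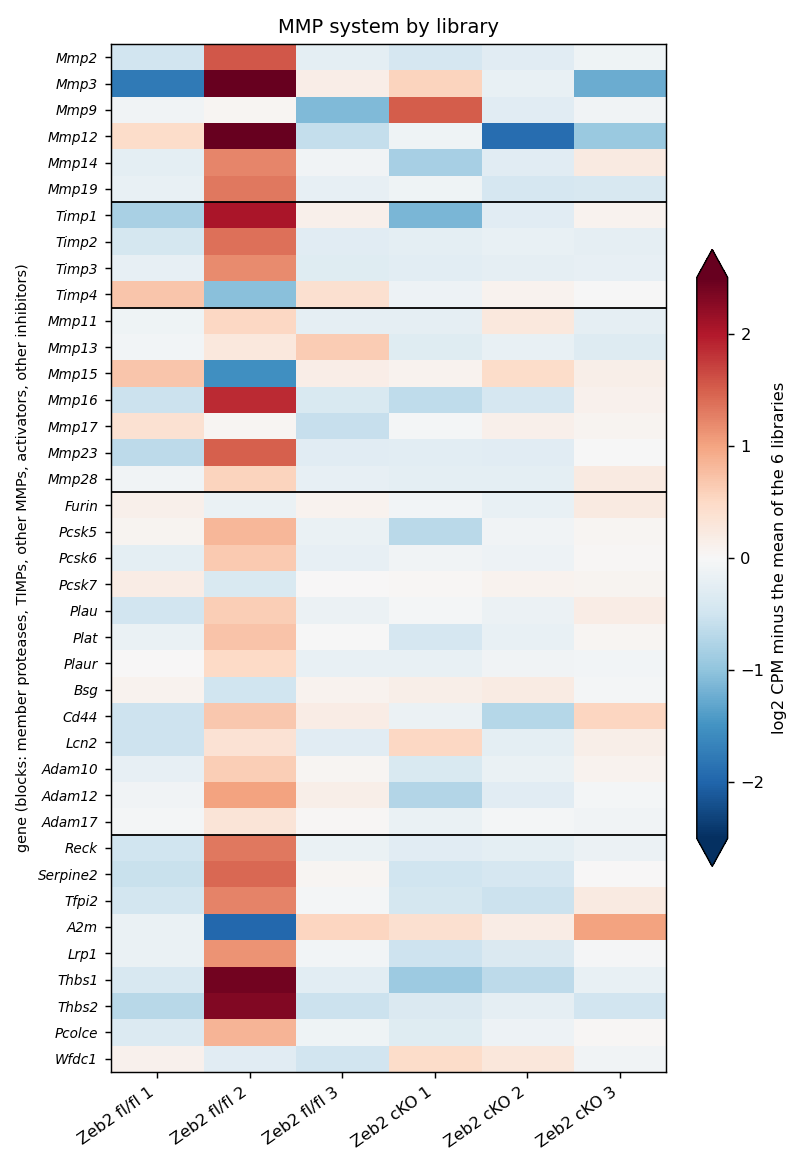
Log2 CPM of the members, 7 other MMPs, 13 activators and cofactors and 9 other inhibitors, each minus its mean over the 6 libraries, with red above and blue below the mean. The column of Zeb2 fl/fl replicate 2 is red in most rows. It is blue in Timp4, Mmp15 and A2m, and less far below the mean in Bsg, Pcsk7, Furin and Wfdc1. The only strongly red cell of Mmp9 is Zeb2 cKO replicate 1.

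For each member, the genes whose log2 CPM, centred on the mean, differed least from it over the 6 libraries were sought among 12327 genes. This is a description over 6 libraries that share 1 outlying library. The 3 nearest to Mmp2 were the fibroblast transcription factor Tcf21 (root mean square difference 0.0373), Olfml2b (0.0401) and Itgb8 (0.0464). Mmp14 lay nearest to Rab23 (0.039), Fbn1, which encodes fibrillin 1 (0.062), and Nek6 (0.0831). For Timp2 these were Boc, Prss23 and Tlr2, for Timp3 Cygb, Ptpn18 and Sept5, and for Mmp19 Adamtsl1, Gm24265 and Stk17b. Timp1 was nearest to the macrophage receptor gene Cx3cr1 (0.15), then to Gpr65 and Gdf6. Mmp12 had no close neighbour, the nearest being the immunoglobulin gene Igha (0.431), osteopontin Spp1 (0.556) and the MHC class II gene H2-Eb1 (0.61). Mmp3 and Mmp9 likewise had distant neighbours, Fst, Esr1 and Fbln7 from 0.451 and Ndnf, Rpsa-ps10 and Gm14636 from 0.236. Timp4 was nearest to Polrmt (0.109), Sik1 and Obsl1.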

How the data were processed

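RNA-seq was analysed for 3 Zeb2 fl/fl (labelled WT) and 3 Zeb2 cKO hearts, assigned by the sample labels, with replicates stated to be separate mice. The authors deposited raw counts per gene, made with the STAR workflow on Gencode M4 from stranded, rRNA-depleted, single-end libraries. The submitters' processing notes name GRCm38. The STAR version, strand option and handling of multi-mapping reads are not given in the sources used here.

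From the counts, symbols and exon lengths were taken from Gencode M21 (GRCm38). Counts were TMM-normalized in edgeR 4.0.16 (R 4.3.3), genes kept by filterByExpr, and genotype tested with glmQLFit and glmQLFTest, Benjamini-Hochberg adjusted over 14746 genes, with a prior count of 0.125. The common biological coefficient of variation was 0.244. RPKM is CPM per kb of union exon. Log2 CPM used a prior count of 2. Alternatives were DESeq2 1.42.0, its size factors, no filter, no mitochondrially encoded genes, a replicate block and leaving out each library. Copies were sought with BLAST 2.17.0 (at least 75 bases, 95% identity). The steps were tested on simulated data.

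The members and gene lists were chosen with earlier results of these data known. Text names all members, other MMPs with 10 counts in 3 libraries, the 2 lowest and 2 highest genes of the activator and inhibitor lists, 3 nearest genes per member, the synapsin hosts and Zeb2. 1 gene of the inhibitor list is not reported here. 0 count columns were unmatched. With 3 mice against 3, an exact two-sided permutation test cannot reach 0.05.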

Additional observations from a re-analysis of the deposited data

How the results depend on the processing

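Of 110 fold changes of members under alternatives, 105 kept their direction. The 5 that turned were Mmp2 at 0.093, Mmp3 at 0.38, Timp2 at 0.15 and Timp3 at 0.015 without Zeb2 fl/fl replicate 2, and Timp4 at 0.14 without Zeb2 fl/fl replicate 1. Over left-out libraries the ranges were -1.18 to 0.093 for Mmp2, -1.87 to 0.38 for Mmp3, -0.99 to 0.15 for Timp2, -0.89 to 0.015 for Timp3 and -0.56 to 0.14 for Timp4. Adjusted p of members lay between 0.596 and 0.9999 over all alternatives in edgeR and DESeq2. Leaving out 1 library gave 2 to 9 members under -0.2, 0 to 2 over 0.2 and 0 to 5 at an unadjusted p under 0.05 in edgeR. The extremes came from leaving out Zeb2 fl/fl replicate 2 (2 under, 2 over) or Zeb2 cKO replicate 1 (0 over). They also came from leaving out Zeb2 cKO replicate 2 or 3 (9 under and 0 at such a p, for either). Of all genes, 3540 and 4029 lay under -0.2 in these last 2 fits. Without Zeb2 fl/fl replicate 1, Mmp2, Mmp3, Mmp12, Mmp19 and Timp1 had such a p. In that fit 1134 of all genes had such a p, against 280 with all 6 libraries. DESeq2 gave 2 members such a p. The replicate block gave 0 members such a p, with Mmp12 at -1.75. Same-numbered libraries deviated from their group means with correlations of 0.088, -0.14 and -0.087 over genes. Differently numbered libraries had correlations between -0.26 and 0.24. These values gave no sign that the numbers pair the mice, but with 3 libraries per group they cannot exclude it.

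Over all genes, leaving out 1 library gave 1753 to 4342 genes under -0.2, 2120 to 3995 over 0.2 and 122 to 1134 at an unadjusted p under 0.05, with 0 adjusted calls. Without the filter these were 7350, 6797 and 600, and DESeq2 called 2 genes higher. The log2 protease to TIMP difference of -0.040 was -0.082 to 0.028 over left-out libraries, -0.137 from CPM without length and -0.137 from the mean of log2 values. The cause was not tested for these changes. Counts of the pathway lists without Zeb2 fl/fl replicate 2 were added after seeing the data. The depth limits Mmp9 most, with 7 to 56 counts per library.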
